A study of Homo sapiens with 14 samples.

Results

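Transcripts of 10 genes that make, elongate and desaturate fatty acids were followed in MOLM14 cells made resistant to gilteritinib: FASN, ACACA, ACLY, ACSS2, ACSL3, SCD, FADS1, FADS2, ELOVL5 and ELOVL6. The genes were taken from a list of symbols, and 9 of the 10 were matched to one of the 39293 Ensembl identifiers of the expression table. ACACA, the gene of acetyl-CoA carboxylase, was not matched to an identifier and is not analysed here. All 9 matched genes passed the filter on low counts and were tested among 15756 genes.

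MOLM14 is a human cell line from acute myeloid leukaemia that carries a FLT3 internal tandem duplication (FLT3-ITD), and gilteritinib inhibits the FLT3 and AXL kinases. Messenger RNA was sequenced in 14 libraries to compare early resistant cells with acutely treated and with parental cells. The FGF2 early libraries came from 4 flasks (5, 6, 7 and 8) of resistant cells kept with fibroblast growth factor FGF2 at 10 ng/mL, and the FL early libraries from 4 flasks kept with the FLT3 ligand FL at 10 ng/mL. FL early replicates 1, 2, 3 and 4 were flasks 10, 11, 12 and 9. Early cells had been given gilteritinib at 100 nM for 48 hours before collection, and their medium held 20% serum. The 3 acute libraries were parental cells given the same dose for the same time, 1 with gilteritinib alone (replicate 1), 1 with FGF2 at 10 ng/mL added (replicate 2) and 1 with FL at 10 ng/mL added (replicate 3). The reference point was 3 libraries of parental MOLM14 cells without drug. All groups are the same cell line, no label states that flasks or parental libraries were started separately, and p-values may therefore measure only technical spread.

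Acetyl-CoA for fatty acid synthesis is supplied in the cytosol by ACLY from citrate and by ACSS2 from acetate, and FASN builds palmitate from it with malonyl-CoA made by ACACA. ACSL3 joins fatty acids to coenzyme A, ELOVL5 and ELOVL6 lengthen them, SCD inserts the first double bond into saturated chains, and FADS1 and FADS2 desaturate polyunsaturated ones. SREBP1, the product of SREBF1, is the best known activator of these genes, and dividing leukaemia cells need the products for membranes.

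SCD had one of the larger differences under acute drug. The neighbours FADS1 and FADS2 were lower in FGF2 early than in FL early and parental cells. Both were also low in acute libraries and in FL early flask 10. The start regions of these genes, which moved most, are shown first. RefSeq (GRCh38.p14) holds such windows, 250 bases before to 50 after a start site, for 9 of the 10 listed genes, with 14 windows in all. FASN has none, and 3 of the 14 belong to ACACA, whose expression is not analysed here. The windows of ACLY overlap each other, as do those of FADS2, so the 14 windows are not all separate stretches. Those printed lie at chr10:100346983-100347282 on the plus strand (SCD), chr11:61816954-61817253 on the minus strand (FADS1) and chr11:61816154-61816453 on the plus strand (the second start of FADS2). Capitals mark a CCAAT box or a GC box on either strand.
SCD: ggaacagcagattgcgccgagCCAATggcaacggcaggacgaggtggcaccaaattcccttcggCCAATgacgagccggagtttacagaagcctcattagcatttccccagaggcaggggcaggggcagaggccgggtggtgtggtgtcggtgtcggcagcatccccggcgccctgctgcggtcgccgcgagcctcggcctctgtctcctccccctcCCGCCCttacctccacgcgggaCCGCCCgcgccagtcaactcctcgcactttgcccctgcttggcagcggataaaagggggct
FADS1: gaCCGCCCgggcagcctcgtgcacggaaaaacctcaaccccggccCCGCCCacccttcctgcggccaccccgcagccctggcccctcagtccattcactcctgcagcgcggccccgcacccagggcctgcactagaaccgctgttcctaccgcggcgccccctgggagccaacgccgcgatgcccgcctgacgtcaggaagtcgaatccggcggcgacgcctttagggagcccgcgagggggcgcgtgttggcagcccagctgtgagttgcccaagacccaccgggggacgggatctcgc
FADS2: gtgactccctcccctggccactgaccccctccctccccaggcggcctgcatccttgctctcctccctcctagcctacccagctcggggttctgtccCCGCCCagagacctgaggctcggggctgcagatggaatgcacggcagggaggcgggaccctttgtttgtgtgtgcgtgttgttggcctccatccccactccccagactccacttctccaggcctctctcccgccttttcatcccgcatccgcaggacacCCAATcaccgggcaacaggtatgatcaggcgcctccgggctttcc

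FADS1 and FADS2 lie on opposite strands of chromosome 11. The starts shown face each other, so that each lies downstream of the other, with 599 bases between them. The distance was 800 bases between that of FADS1 and the other FADS2 start among the windows. Starts of FADS2 outside these windows were not examined, so the arrangement of the genes as a whole is not given. The SCD window held 2 CCAAT boxes and 2 GC boxes, the FADS1 window 2 GC boxes and the FADS2 window 1 of each. Both strands were searched, and no match of one motif overlapped a match of another. A CCAAT box (letters CCAAT) was found in 9 of the 14 windows, against 34.6% of 35116 RefSeq promoters of this length. A GC box (letters GGGCGG) was found in 11 windows, against 45% of those promoters. An E-box (letters CACGTG) was found in 1 window, that of ELOVL5, against 7.26%. The sterol response element searched as TCACNCCAC was found in none of the windows and in 1.13% of all promoters. These matches describe the letters and were not tested as binding sites.

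The libraries held 25723575 to 33075041 estimated counts. Expression is given in CPM, a gene's count relative to its TMM-scaled library size, differences are log2 fold changes ± SE, and adjusted p-values are from edgeR's quasi-likelihood test with Benjamini-Hochberg adjustment over all genes tested. Acute libraries stood apart from the rest on the first principal component, at 104.6 to 122.6 against −48.6 to −5.7. FL early replicates 1 and 4 (−9 and 16.9) stood away from FL early replicates 2 and 3 (−34.8 and −33.7) on the second. All 10 myeloid markers were detected in every library, with summed levels of 526 to 734 CPM in FGF2 early, 1325 to 2003 in FL early, 1057 to 1359 in acute and 635 to 692 in parental libraries. Of 19 markers of other cell types, 13 stayed under 1 CPM in every library, and CD2, HBB, HBA1 and ALAS2 were among those at 0 in all of them. Their summed level was 80.8 to 88 CPM in FGF2 early, 125 to 196 in FL early, 138 to 279 in acute and 68.8 to 70.7 in parental libraries, mostly from PECAM1 (56.2 to 269 CPM) and KRT18 (6.59 to 28.7 CPM).

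Lipogenic transcripts were low in acutely treated cells, except for that of ACSS2, which was high there. Against acute cells, 6 of the 9 genes were higher in early cells (ACLY, FASN, ACSL3, ELOVL5, SCD and FADS1), where 32.1% of all genes tested were higher, and ACSS2 was lower, where 33.9% of all genes were. Acute cells, set against parental cells, were lower in 8 of the 9 genes, where 30.3% of all genes were lower, and higher in ACSS2, where 32.3% were higher. The median difference over the 9 genes was 1.32 for early against acute cells, with −0.04 over all genes, and −1.55 for acute against parental cells, with 0.07 over all genes. Both comparisons use the 3 acute libraries, so their opposite signs are not independent of each other. Without FL early replicates 1 and 4, a setting chosen after seeing the data, 8 genes were higher and 1 lower in early against acute cells, and 1 higher and 8 lower in acute against parental cells. With the ligand-free acute library alone, 1 was higher and 6 were lower in acute against parental cells. In bulk RNA, fewer cells of a kind and less RNA per cell cannot be told apart.

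**Figure D1:**
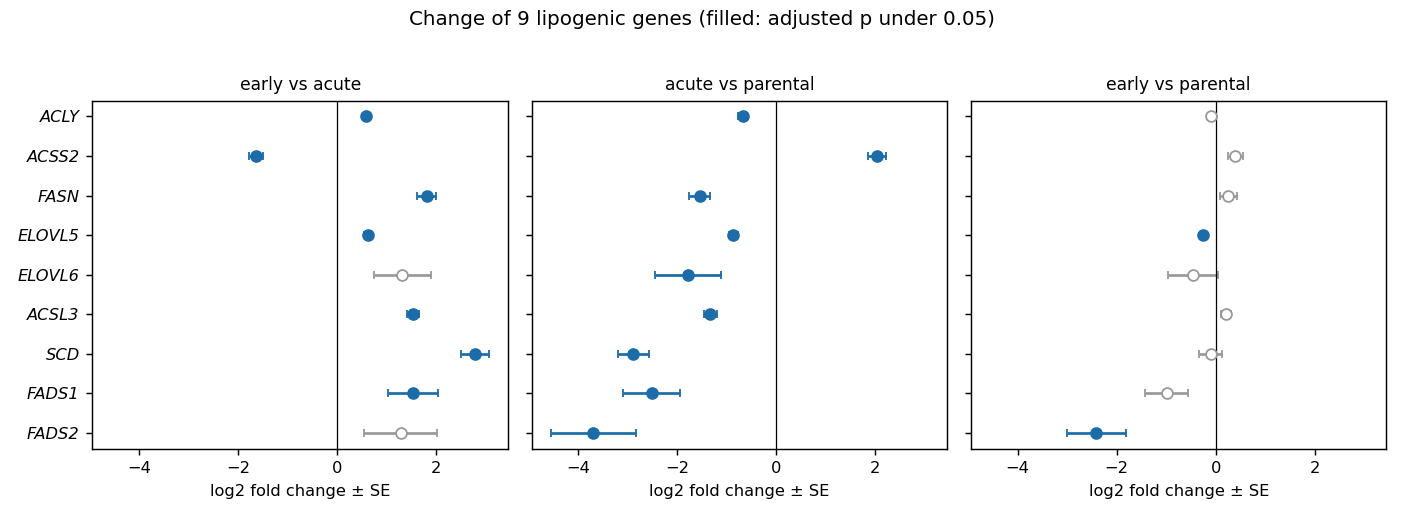
Log2 fold change (x axis, ± SE) of the 9 genes (y axis) in early against acute, acute against parental and early against parental cells, with filled points for adjusted p under 0.05 by edgeR. ACSS2 lies on the side opposite to the other genes in the first and second panels, at −1.63 and 2.04.

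The acetyl-CoA suppliers moved in opposite directions. ACLY (ENSG00000131473) stood at 228, 232, 205 and 218 CPM in FGF2 early flasks, 176, 216, 231 and 205 CPM in FL early flasks, 138, 145 and 143 CPM in acute libraries and 223, 235 and 226 CPM in parental libraries. All 8 early libraries and all 3 parental libraries lay above the acute ones. The difference was 0.59 ± 0.07 in early against acute cells (adjusted p = 6.07e-06) and −0.68 ± 0.09 in acute against parental cells (adjusted p = 8.34e-06, edgeR). ACSS2 (ENSG00000131069) stood at 16.5, 13.1, 15 and 13 CPM in FGF2 early flasks, 19.1, 19.3, 22.2 and 14.7 CPM in FL early flasks, 64.4, 38.6 and 50.2 CPM in acute libraries and 12.5, 11.5 and 13.2 CPM in parental libraries. Every acute library lay above every other library, and the highest was the one without ligand. The difference was −1.63 ± 0.14 in early against acute cells (adjusted p = 1.14e-07) and 2.04 ± 0.18 in acute against parental cells (adjusted p = 2.81e-07).

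FASN (ENSG00000169710), the multifunctional enzyme that makes palmitate, stood at 594, 598, 437 and 508 CPM in FGF2 early flasks, 351, 504, 577 and 546 CPM in FL early flasks, 118, 176 and 147 CPM in acute libraries and 367, 365 and 557 CPM in parental libraries. The acute libraries were separate from all others, while early and parental libraries overlapped. The difference was 1.81 ± 0.19 in early against acute cells (adjusted p = 1.48e-06), which is 3.5-fold, and −1.55 ± 0.21 in acute against parental cells (adjusted p = 2.13e-05). ACSL3 (ENSG00000123983), an acyl-CoA synthetase of the endoplasmic reticulum and lipid droplets, stood at 58.1, 53.9, 59.4 and 58.9 CPM in FGF2 early flasks, 40.9, 62.5, 59.2 and 49.9 CPM in FL early flasks, 18.6, 18.7 and 20.1 CPM in acute libraries and 50.9, 51.1 and 41.7 CPM in parental libraries. Its acute libraries were also below all others and close to one another. The difference was 1.53 ± 0.12 in early against acute cells (adjusted p = 6.36e-08) and −1.33 ± 0.14 in acute against parental cells (adjusted p = 1.08e-06).

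**Figure D2:**
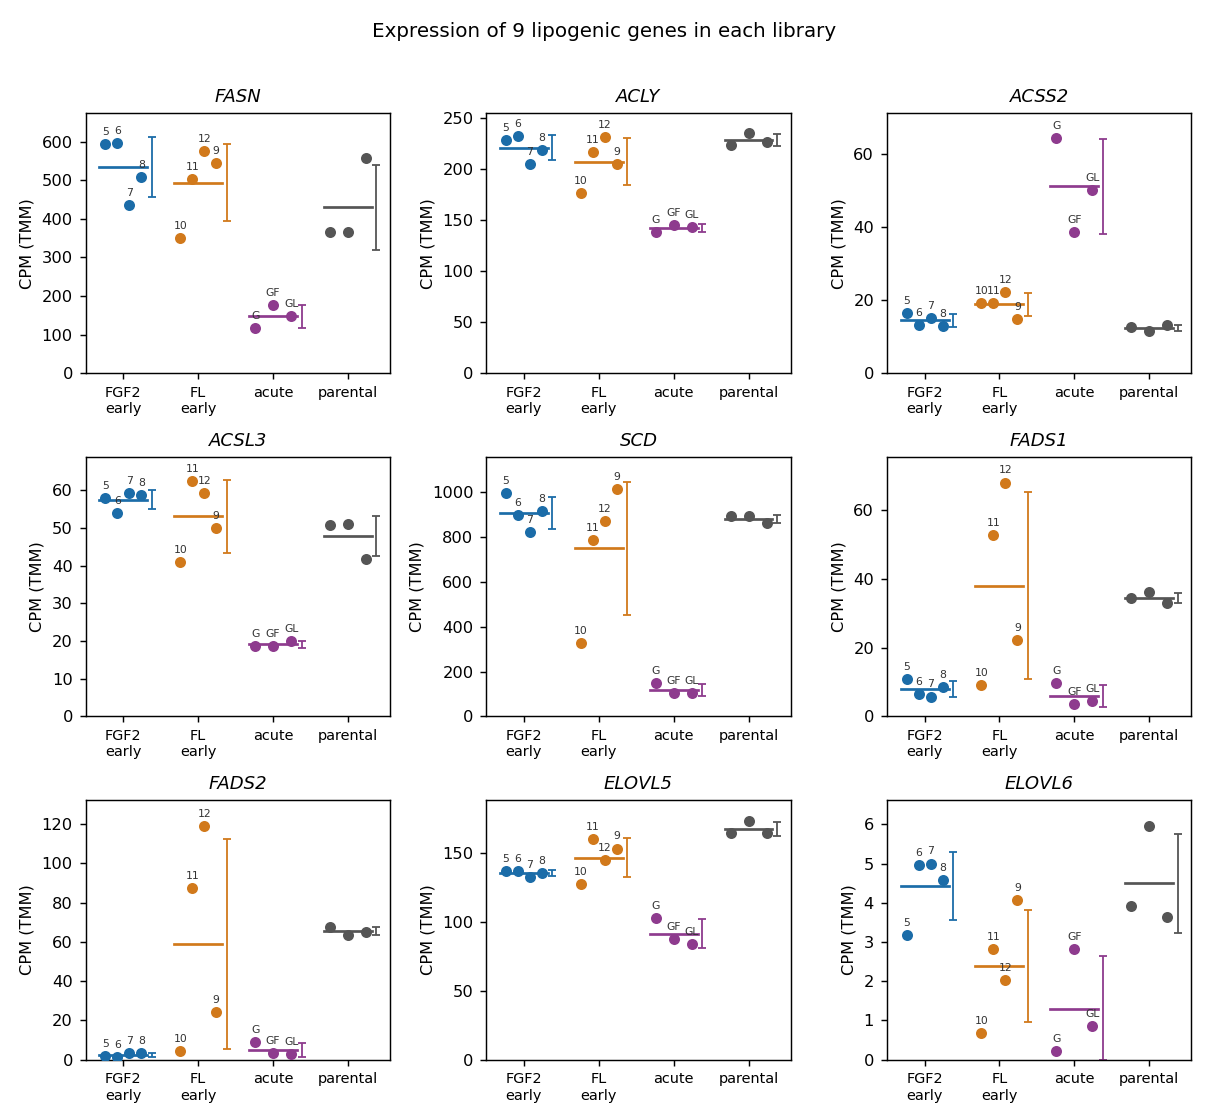
CPM (y axis, TMM library sizes) of the 9 genes in FGF2 early, FL early, acute and parental libraries (x axis); points are libraries, lines are means and bars at the side are SD. Numbers name flasks, and G, GF and GL the acute libraries without ligand, with FGF2 and with FL; the FADS2 points of FL early flasks 11 and 12 (87.4 and 119 CPM) lie above the parental points (63.5 to 67.5 CPM) and those of flasks 9 and 10 (24.2 and 4.61 CPM) below them.

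Among the elongases, ELOVL5 (ENSG00000012660), which extends polyunsaturated chains, stood at 137, 137, 132 and 135 CPM in FGF2 early flasks, 127, 160, 145 and 153 CPM in FL early flasks, 103, 87.6 and 83.7 CPM in acute libraries and 164, 173 and 164 CPM in parental libraries. Acute libraries were lowest and parental libraries highest, with no overlap between early cells and either of them. The difference was 0.62 ± 0.08 in early against acute cells (adjusted p = 5.77e-06) and −0.87 ± 0.09 in acute against parental cells (adjusted p = 1.18e-06). ELOVL6 (ENSG00000170522), which extends palmitate to stearate, was scarce. It stood at 3.17, 4.96, 5 and 4.59 CPM in FGF2 early flasks, 0.669, 2.81, 2.03 and 4.07 CPM in FL early flasks, 0.23, 2.82 and 0.847 CPM in acute libraries and 3.92, 5.95 and 3.63 CPM in parental libraries. The acute library with FGF2 lay among the early flasks, and the one without ligand was the lowest of all libraries. Early against acute cells gave 1.32 ± 0.58 and missed the threshold (adjusted p = 0.0593), but passed without FL early replicate 1 (1.53, adjusted p = 0.0181) and without acute replicate 2 (2.63, adjusted p = 0.00265). With the ligand-free acute library alone the difference was 3.83 (adjusted p = 0.0037), and without that library it was 0.82 (adjusted p = 0.204). Acute against parental cells gave −1.79 ± 0.67 (adjusted p = 0.0302), a call lost without parental replicate 2 (−1.54, adjusted p = 0.0913), acute replicate 1 (−1.29, 0.085) or acute replicate 3 (−1.57, 0.0992), and without acute replicate 2 it was −3.09 (adjusted p = 0.00157). That call was also lost with no low-count filter (−1.82, adjusted p = 0.055).

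The desaturase SCD (ENSG00000099194) stood at 993, 898, 821 and 917 CPM in FGF2 early flasks, 327, 785, 869 and 1012 CPM in FL early flasks, 149, 103 and 105 CPM in acute libraries and 891, 891 and 861 CPM in parental libraries. FL early flask 10 was the low point among early flasks and still lay above each acute library. In acute against parental cells the difference was −2.89 ± 0.31 (adjusted p = 1.8e-06, edgeR), with parental libraries within 1.04-fold of one another. FADS1 (ENSG00000149485) stood at 10.8, 6.62, 5.79 and 8.54 CPM in FGF2 early flasks, 9.11, 52.8, 68 and 22.1 CPM in FL early flasks, 9.74, 3.71 and 4.5 CPM in acute libraries and 34.3, 36.1 and 33.1 CPM in parental libraries. FADS2 (ENSG00000134824) stood at 1.95, 1.35, 3.55 and 3.45 CPM in FGF2 early flasks, 4.61, 87.4, 119 and 24.2 CPM in FL early flasks, 8.89, 3.26 and 2.81 CPM in acute libraries and 67.5, 63.5 and 65.3 CPM in parental libraries. Transcripts of these genes from the starts shown would overlap on opposite strands, but which starts were used in these cells was not examined. The sources used here do not say whether counting used strand, so reads from any such overlap may not be told apart. For both genes the acute libraries and the FGF2 early flasks were low, the parental libraries were close together, and the FL early flasks were spread from low to above parental.

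Acute against parental cells gave −2.52 ± 0.58 for FADS1 (adjusted p = 0.0018) and −3.70 ± 0.86 for FADS2 (adjusted p = 0.00192, edgeR). Without acute replicate 1, the library without ligand, FADS2 gave −4.43 (adjusted p = 0.0038). With the ligand-free acute library alone, these were −1.85 and −2.91 (adjusted p = 0.0967 and 0.0965). Early cells averaged over both ligands differed from acute cells by 1.53 ± 0.51 for FADS1 (adjusted p = 0.0164), although the early and acute libraries overlapped. That call was lost without acute replicate 2 (1.30, adjusted p = 0.0755) or acute replicate 3 (1.37, adjusted p = 0.0705), with limma-voom it was also lost (1.46, adjusted p = 0.0849), and with the ligand-free library alone the difference was 0.87 (adjusted p = 0.371). FADS2 gave 1.29 ± 0.74 (adjusted p = 0.141), with a 95% interval of −0.16 to 2.75, and passed without FL early replicate 1 (1.53, adjusted p = 0.0162). Without acute replicate 1 it was 2.02 (adjusted p = 0.0891), and with that ligand-free library alone 0.50 (adjusted p = 0.738).

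Other features of the libraries moved with the acute values. The 12 proliferation genes were all lower in acute than in parental cells (median −3.68), with summed levels of 2619 to 3173 CPM in early, 281 to 332 CPM in acute and 3578 to 3714 CPM in parental libraries. The share of counts from ribosomal protein genes was 11.1% to 13.4% in early, 16.7% to 20.2% in acute and 12.8% to 13.3% in parental libraries. The mitochondrially encoded share was 4.26% to 5.31% in early, 3.52% to 3.91% in acute and 4.63% to 5% in parental libraries. The part of these features in the lipogenic differences was not tested.

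Within the acute libraries, each ligand state is a single library, and no test was possible. ACSS2, FADS1, FADS2, SCD and ELOVL5 were highest in the library with gilteritinib alone. FASN, ACLY and ELOVL6 were highest in the one with FGF2. The widest gap was that of ELOVL6, at 2.82 CPM with FGF2, 0.847 CPM with FL and 0.23 CPM without ligand, and the narrowest were those of ACLY and ACSL3, within 1.05-fold and 1.08-fold.

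Early resistant cells were next set against parental cells. Averaged over both ligands, none of the 9 genes was higher in early cells, where 13.7% of all genes tested were higher, and FADS2 and ELOVL5 were lower, where 16.1% of all genes were. At an unadjusted p under 0.05, edgeR had 1 of the 9 higher, and DESeq2 and limma-voom called 1 and 0 higher. The median difference of the 9 genes was −0.10, with 0.01 over all genes. ELOVL5 was lower at −0.25 ± 0.07 (adjusted p = 0.0203, edgeR), and the call was lost without parental replicate 1 (−0.26, adjusted p = 0.0572) or parental replicate 2 (−0.22, adjusted p = 0.103). FADS2 gave −2.41 ± 0.60 (adjusted p = 0.00914), although FL early flasks 11 and 12 lay above all parental libraries.

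The other synthesis genes did not pass in early against parental cells. SCD averaged 828 ± 216 CPM in early cells (SD, n = 8) and 881 ± 17.3 CPM in parental cells (SD, n = 3), a difference of −0.10 ± 0.23 with a 95% interval of −0.55 to 0.36 (adjusted p = 0.791, edgeR). FASN averaged 514 ± 85.5 CPM in early cells and 430 ± 110 CPM in parental cells, a difference of 0.26 ± 0.18 with an interval of −0.08 to 0.60 (adjusted p = 0.288). ACLY gave −0.09 ± 0.07 with an interval of −0.23 to 0.05 (adjusted p = 0.356). ACSL3 gave 0.21 (adjusted p = 0.172) and passed without FL early replicate 1 (0.27, adjusted p = 0.0283). ACSS2, which separated acute cells from parental ones, gave 0.40 ± 0.15 (adjusted p = 0.0593). It passed without FL early replicate 4 (0.46, adjusted p = 0.0266), acute replicate 1 (0.40, 0.0295) or acute replicate 2 (0.41, 0.031). Acute libraries enter this comparison through the shared fit (filter, scaling, estimate of the spread and adjustment), and these parts were not separated. FADS1 gave −0.99 ± 0.43 (adjusted p = 0.0997) and passed without FL early replicate 3 (−1.21, adjusted p = 0.0376).

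Split by ligand, the desaturases of polyunsaturated chains, FADS1 and FADS2, were lower in FGF2 early cells than in FL early and parental cells. Both were low in acute libraries as well. FGF2 early cells were higher than parental cells in none of the 9 genes, where 13.3% of all genes were higher, and lower in FADS1, FADS2 and ELOVL5, where 17.1% of all genes were lower. FL early cells were higher than parental cells in ACSS2, where 10.9% of all genes were higher, and lower in none, where 9.76% were lower. With the replicate number as a block in the fit, ELOVL6 was called lower there (−1.23, adjusted p = 0.0463, edgeR). Compared directly, FGF2 early cells were lower than FL early cells in FADS1 and FADS2, where 9.56% of all genes were lower, and higher in none, where 4% of all genes were higher. For these 3 counts of none, edgeR at an unadjusted p under 0.05 gave 1 gene higher in FGF2 early against parental cells, 1 lower in FL early against parental cells and 0 higher in FGF2 early against FL early cells, and DESeq2 and limma-voom called 0 in each. The median difference over the 9 genes was −0.02, −0.14 and 0.09 in these comparisons, with 0.01, 0.01 and −0.00 over all genes.

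FADS2 averaged 2.57 ± 1.1 CPM in FGF2 early flasks (SD, n = 4), 58.9 ± 53.6 CPM in FL early flasks (SD, n = 4) and 65.5 ± 2.01 CPM in parental libraries (SD, n = 3). Every FGF2 early flask lay below every FL early flask and every parental library. The difference was −4.67 ± 0.81 in FGF2 early against parental cells (adjusted p = 0.000976, 25.4-fold) and −4.52 ± 0.79 in FGF2 early against FL early cells (adjusted p = 0.00239, 22.9-fold, edgeR). FADS1 averaged 7.94 ± 2.24 CPM in FGF2 early flasks, 38 ± 27.1 CPM in FL early flasks and 34.5 ± 1.48 CPM in parental libraries. The FGF2 early flasks lay below all parental libraries but overlapped FL early flask 10. The difference was −2.11 ± 0.52 in FGF2 early against parental cells (adjusted p = 0.00739) and −2.26 ± 0.49 in FGF2 early against FL early cells (adjusted p = 0.00874). Both of these comparisons share the 4 FGF2 early flasks. With limma-voom in place of edgeR, FADS2 in FGF2 early against FL early cells was −3.83 and missed the threshold (adjusted p = 0.0688). Without FL early replicate 3 (flask 12) it was −3.91 (adjusted p = 0.00631) with edgeR. The summed myeloid markers also differed, at 526 to 734 CPM in FGF2 early and 1325 to 2003 CPM in FL early flasks, with 5 of the 10 lower in FGF2 early cells, where 9.56% of all genes were, and their part in the FADS1 and FADS2 differences was not tested.

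**Figure D3:**
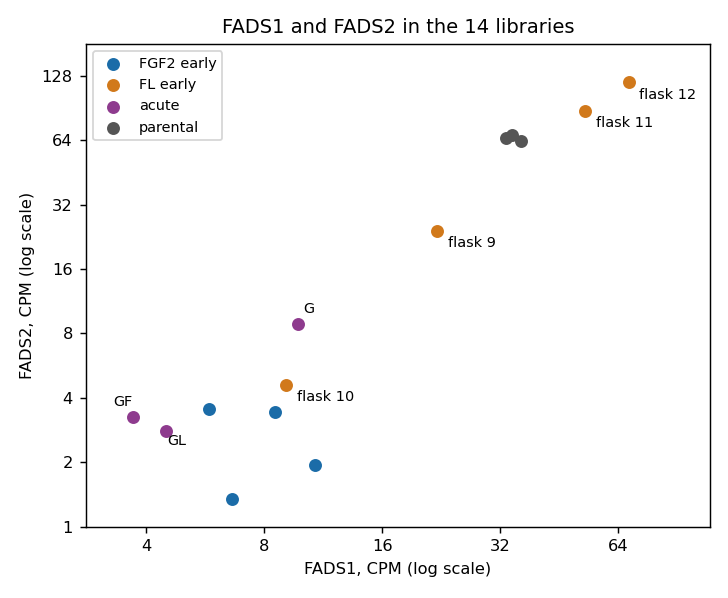
FADS1 (x axis) and FADS2 (y axis) in CPM, both on log scales, in each of the 14 libraries. FGF2 early flasks and acute libraries lie at the low end of both axes, FL early flasks run from flask 10 (9.11 and 4.61 CPM) to flask 12 (68 and 119 CPM), and parental libraries form one tight cluster.

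FL early flasks spanned 25.9-fold for FADS2, 7.47-fold for FADS1, 6.08-fold for ELOVL6 and 3.09-fold for SCD, each highest over lowest. Flask 10 was the lowest for each of these genes, and also for FASN, ACLY, ACSL3 and ELOVL5. Flasks 11 and 12 held more FADS1 and FADS2 than any parental library, and flask 9, the highest FL early flask for SCD and ELOVL6, lay between flask 10 and the parental libraries for FADS1 and FADS2. In parental libraries the spread of the 9 genes was 1.04-fold to 1.64-fold. FADS1 and FADS2 gave 0.14 ± 0.50 and −0.15 ± 0.70 in FL early against parental cells (adjusted p = 0.873 and 0.902, edgeR), with 95% intervals of −0.84 to 1.12 and −1.52 to 1.21.

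FL early replicates 1 and 4 (flasks 10 and 9) held the least FADS1, FADS2 and ACSL3 of the FL early flasks. Leaving them out, a choice made after seeing the data, must raise the FL early level of these genes. Without them, FADS1 and FADS2 in FGF2 early against FL early cells were −2.92 and −5.32, and ACSS2 also passed (−0.52, adjusted p = 0.045, edgeR). The same setting gave 4 called genes of the 9 in early against parental cells, with ACSL3 and ACSS2 higher and FADS2 and ELOVL5 lower. In FL early against parental cells it gave 0.82 and 0.67 for FADS1 and FADS2 (adjusted p = 0.0858 and 0.229) and called ACSL3 and ACSS2 higher.

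None of the other 7 genes passed between the ligands. SCD averaged 907 ± 70.3 CPM in FGF2 early flasks and 748 ± 296 CPM in FL early flasks, and FASN 534 ± 77.2 CPM and 494 ± 100 CPM in the same groups, with 95% intervals of the log2 difference of −0.20 to 0.76 and −0.24 to 0.47. For ELOVL5, FGF2 early against parental cells gave −0.30 ± 0.08 (adjusted p = 0.0127), lost without parental replicate 2 (−0.28, adjusted p = 0.0576). ACSL3 missed the threshold in that comparison (0.26) and passed without FL early replicate 1 (0.28, adjusted p = 0.036). For ACSS2, FL early against parental cells gave 0.60 ± 0.17 (adjusted p = 0.0239), with every FL early flask above every parental library. The call was lost without FL early replicate 3 (0.51, adjusted p = 0.0597), parental replicate 1 (0.60, 0.0765) or parental replicate 2 (0.54, 0.102). FGF2 early against FL early cells passed for ACSS2 without FL early replicate 4 (−0.49, adjusted p = 0.0344).

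Genes beside FADS1 and FADS2 had differences in both directions. In chromosomal order the neighbours DAGLA, MYRF, TMEM258, FEN1, FADS1, FADS2, FADS3, RAB3IL1, BEST1 and FTH1 were all tested. FADS3, a desaturase relative that lies beside FADS2, stood at 3.24 to 5.69 CPM in FGF2 early flasks and 1.7 to 2.89 CPM in parental libraries, a difference of 0.99 ± 0.23 (adjusted p = 0.00605, edgeR). FGF2 early against FL early cells gave 0.09 ± 0.21 for FADS3 (adjusted p = 0.811). FADS3 was also higher in FL early than in parental cells, by 0.89 ± 0.23 (adjusted p = 0.0167). In acute against parental cells it gave 0.93 ± 0.25 (adjusted p = 0.00438, edgeR). DAGLA, the diacylglycerol lipase gene, and RAB3IL1 were lower in FGF2 early than in FL early cells (−0.99 ± 0.25 and −1.61 ± 0.44, adjusted p = 0.0176 and 0.0257). FTH1, the ferritin heavy chain gene, was higher (0.61 ± 0.13, adjusted p = 0.0086), a value that is uncertain because near-identical copies of that gene can share its reads. MYRF, TMEM258, FEN1 and BEST1 did not pass there. FEN1 was lower than in parental cells in FGF2 early (−0.46 ± 0.07), FL early (−0.38 ± 0.07) and acute cells (−3.65 ± 0.08). In acute against parental cells TMEM258 was also lower (−0.71 ± 0.10), and BEST1 and FTH1 were higher (0.97 ± 0.17 and 2.17 ± 0.16). RAB3IL1 was scarce, at 0.233 to 0.93 CPM in FGF2 early flasks and 0.818 to 3.19 CPM in FL early flasks. It was also lower than in parental cells in FGF2 early cells (−1.60 ± 0.46, adjusted p = 0.0177) and in acute cells (−2.32 ± 0.53, adjusted p = 0.0016, edgeR). These neighbours were chosen after the FADS1 and FADS2 values had been seen.

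**Figure D4:**
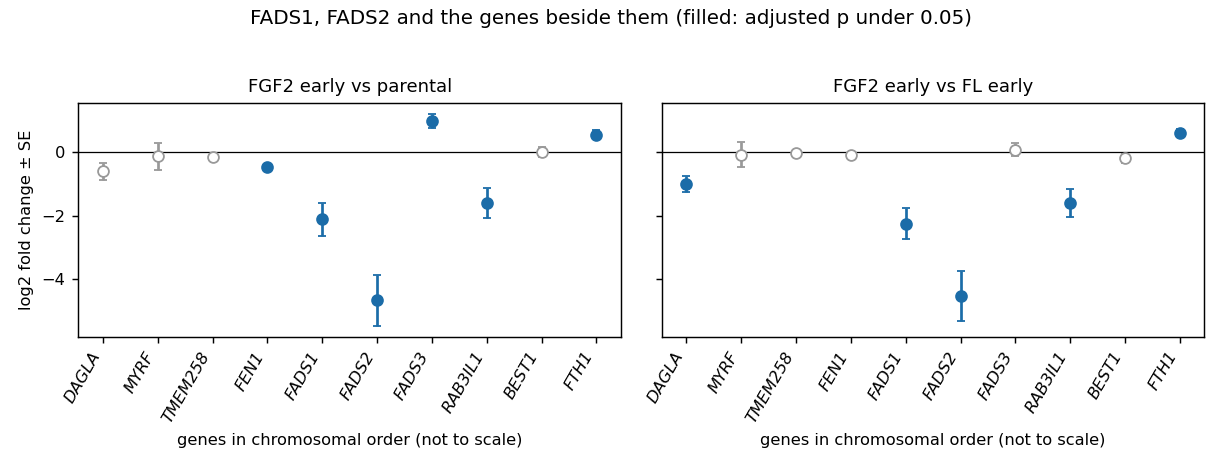
Log2 fold change (y axis, ± SE) of 10 neighbouring genes of chromosome 11 in chromosomal order (x axis, not to scale) in FGF2 early against parental and FGF2 early against FL early cells, with filled points for adjusted p under 0.05 by edgeR. FADS1 and FADS2 lie lowest in both panels, and FADS3 beside them lies at 0.99 and 0.09.

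A list of 35 other genes of fatty acid synthesis, of which 27 passed the low-count filter, was read beside the 9. In early against acute cells 15 were higher and 6 lower (median 0.39), and in acute against parental cells 6 were higher and 13 lower (median −0.41). Of all genes, 32.1% were higher and 33.9% lower in the first of these comparisons, and 32.3% and 30.3% in the second. SLC25A10, the mitochondrial dicarboxylate carrier, averaged 32.3 ± 3.65 CPM in early cells and 5.25 ± 0.324 CPM in acute cells, a difference of 2.62 ± 0.15 (adjusted p = 2.04e-09, edgeR). HACD3 and HACD1, dehydratases of the elongation cycle, were higher by 1.13 ± 0.06 and 1.48 ± 0.14 (adjusted p = 6.66e-10 and 4.87e-07). IDH1, which supplies cytosolic NADPH, was higher by 0.85 ± 0.07 (adjusted p = 1.23e-07), with 113 ± 6.4 CPM in the early libraries against 62.6 ± 6.95 CPM in the acute ones. Against parental cells 5 of the 27 were higher and 2 lower in early cells, 3 and 2 in FGF2 early cells and 4 and 1 in FL early cells. The shares of all genes higher and lower were 13.7% and 16.1% in early, 13.3% and 17.1% in FGF2 early and 10.9% and 9.76% in FL early cells, so these counts are not read as a result about the list.

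FGF2 early against FL early cells gave 2 higher and 3 lower of these 27 genes, where 4% of all genes were higher and 9.56% lower, and the 5 are named here after their values had been seen. HSD17B12, the ketoacyl-CoA reductase of the elongation cycle, stood at 1.19, 3.21, 2 and 1.17 CPM in FGF2 early flasks, 53.1, 48.8, 57.9 and 11.4 CPM in FL early flasks, 34.8, 46.7 and 39.3 CPM in acute libraries and 52.5, 53.4 and 55 CPM in parental libraries. All FGF2 early flasks were below all other libraries, and flask 9 alone among FL early flasks was low. The difference was −4.51 ± 0.46 in FGF2 early against FL early cells (adjusted p = 4.78e-05, edgeR) and −4.84 ± 0.48 in FGF2 early against parental cells (adjusted p = 1.81e-05). It did not pass in acute against parental cells (−0.41 ± 0.43, adjusted p = 0.417). ELOVL1, an elongase of very long chains, and CYB5R3, which feeds electrons to desaturases, were lower (−0.25 ± 0.07 and −0.23 ± 0.06, adjusted p = 0.0312 and 0.0249). ME1, the cytosolic malic enzyme, and OXSM, a mitochondrial synthase, were higher by 1.13 ± 0.30 and 0.33 ± 0.09 (adjusted p = 0.023 and 0.0334). ME1 averaged 11.6 ± 1.4 CPM in FGF2 early flasks, 5.3 ± 1.95 CPM in FL early flasks and 2.69 ± 0.542 CPM in parental libraries.

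Of 29 regulators of lipogenesis, 27 were tested, and SREBF1 was low in acute cells as most of the enzymes were. It stood at 217, 196, 187 and 201 CPM in FGF2 early flasks, 76.8, 135, 153 and 203 CPM in FL early flasks, 41.8, 43.9 and 47.1 CPM in acute libraries and 128, 135 and 130 CPM in parental libraries. Acute libraries were separate from all others, and flask 10 was the low early flask, as it was for SCD and FASN. The difference was 1.93 ± 0.21 in early against acute cells (adjusted p = 1.9e-06) and −1.56 ± 0.23 in acute against parental cells (adjusted p = 4.38e-05, edgeR). FGF2 early cells were higher than parental cells in SREBF1, by 0.62 ± 0.21 (adjusted p = 0.0423), while FADS1 and FADS2 were lower there.

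SREBF2, whose product activates sterol synthesis, went the other way, at 405 ± 43.9 CPM in acute and 271 ± 10.9 CPM in parental cells (0.58 ± 0.11, adjusted p = 0.000482, edgeR). In early against acute cells it gave −0.49 ± 0.09 (adjusted p = 0.000277). INSIG1, an SREBP target that retains SREBP in the endoplasmic reticulum, gave 0.72 ± 0.19 in early against acute cells (adjusted p = 0.00437) and −0.61 ± 0.22 in acute against parental cells (adjusted p = 0.028). MLXIPL, the gene of the glucose-responsive factor ChREBP, was under the low-count filter, at no more than 0.62 CPM. NR1H3, the gene of LXR alpha, was scarce and gave 0.76 ± 0.25 in FGF2 early against parental cells (adjusted p = 0.0345). Over the 27 regulators, 7 were higher and 12 lower in early against acute cells (median −0.03), and 13 were higher and 8 lower in acute against parental cells (median 0.20). The shares of all genes were 32.1% higher and 33.9% lower in early against acute cells, and 32.3% higher and 30.3% lower in acute against parental cells. PPARD and USF2 were lower in early than in acute cells (−1.12 ± 0.09 and −0.70 ± 0.07), and RNF139, a ubiquitin ligase, was higher by 0.82 ± 0.08.

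**Figure D5:**
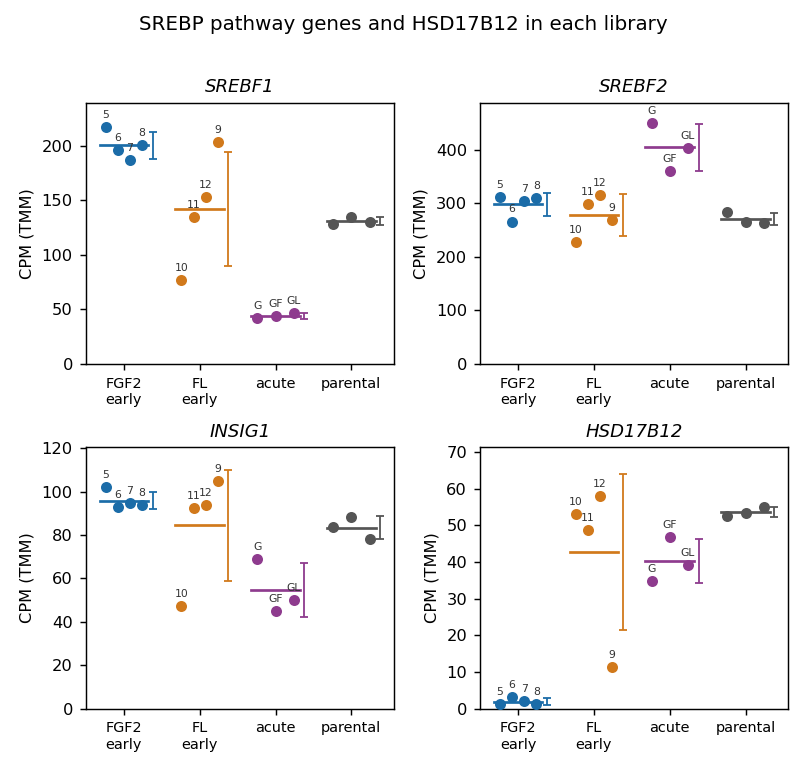
CPM (y axis, TMM library sizes) of SREBF1, SREBF2, INSIG1 and HSD17B12 in FGF2 early, FL early, acute and parental libraries (x axis); points are libraries, lines are means, bars are SD, and labels name flasks and acute libraries (G without ligand, GF with FGF2, GL with FL). SREBF1 is lowest in acute libraries (41.8 to 47.1 CPM), and HSD17B12 in FGF2 early flasks (1.17 to 3.21 CPM).

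In FGF2 early against FL early cells 5 of the 27 regulators passed, all lower, where 9.56% of all genes were lower and 4% higher, and 4 of them are named here after their values had been seen. MBTPS2, the protease that releases SREBP from the membrane, averaged 8.1 ± 0.827 CPM in FGF2 early flasks and 14.4 ± 3.48 CPM in FL early flasks (−0.83 ± 0.16, adjusted p = 0.00394, edgeR). RXRA, the partner of LXR, and PRKAG1, a subunit of AMP-activated kinase, gave −0.45 ± 0.12 and −0.25 ± 0.06 (adjusted p = 0.0215 and 0.017). PPARG gave −3.67 ± 0.61 (adjusted p = 0.00152) from levels at or under 1.19 CPM in every library.

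Genes with patterns most like those of the enzymes over the 14 libraries were sought among 9195 expressed genes by Pearson's r of log2 CPM, as a description, since libraries of a group share their treatment. For SCD these were LONRF1, STC2 and USP6NL (r = 0.988 each), YME1L1 (0.985) and DTWD1 (0.984). For FASN they were LONP1 (0.991), UBE2M (0.981), FSCN1 and TMEM131L (0.975 each) and SETMAR (0.974). STC2 averaged 23.6 ± 7.75 CPM in early libraries and 1.58 ± 0.349 CPM in acute libraries. For FADS2, added after seeing the data, the leading genes were MYL12B (0.945) and LITAF (0.935), both lower in FGF2 early than in FL early cells (−0.30 ± 0.07 and −0.60 ± 0.11, adjusted p = 0.0126 and 0.00245, edgeR). For ACSS2, likewise added, they were TNFAIP8L1 and PARVG (0.984 each), both higher in acute than in parental cells (1.09 ± 0.11 and 1.36 ± 0.08, adjusted p = 1.26e-06 and 4.81e-09).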

How the data were processed

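Polyadenylated RNA in 14 samples was sequenced with a stranded TruSeq kit on a NovaSeq, per the labels' protocols. The authors deposited estimated counts per Ensembl gene, made with kallisto on GRCh37, per the submitters' processing notes. How transcripts were summed to genes is not given in the sources used here. Identifiers were named through GENCODE 29 and a gene name table, which left 4.63% to 5.53% of counts without a name.

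Counts were rounded, filterByExpr dropped genes with low counts (settings 10 per library and 15 in total), and all libraries fitted in 4 groups with edgeR 4.0.16 in R 4.3.3 (TMM, robust quasi-likelihood test, two-sided, threshold 0.05). For early cells, both ligand groups were weighted equally. The acute group holds 3 ligand states, so its spread includes their differences. The scripts were tested on simulated data. Alternatives changed the scaling, filter, tool (DESeq2 1.42.0, limma 3.58.1), libraries and acute make-up. Levels were not compared between genes.

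The members and lists were chosen with earlier results of these data known. Other genes named are the 4 of each list with the smallest adjusted p in early against acute cells, 5 regulators by name, and the 5 nearest patterns; those chosen later are marked, and a few named by these rules are not reported here. Stated intervals are 95% intervals of the fit.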

Additional observations from a re-analysis of the deposited data

Results flagged for a closer look

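FADS1 and FADS2 differed between the resistant lines, by the test of FGF2 early against FL early cells itself. The difference was −2.26 for FADS1 (adjusted p = 0.00874) and −4.52 for FADS2 (adjusted p = 0.00239, edgeR). Every FGF2 early flask lay under every FL early flask for FADS2, at 1.35 to 3.55 CPM against 4.61 to 119 CPM, while FL early flask 10 lay within the FGF2 early range for FADS1. No single flask stood apart by Dixon's test in the 18 groups of 4 flasks that were tested, 9 genes in each line, where chance alone would mark about 1 in 20. With 4 flasks the test marks only extreme gaps, and the groups of a line share the same flasks. It therefore cannot show that the flasks of a line were alike.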

How the results depend on the processing

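Of 1260 gene values under 25 alternatives, 1199 kept their direction and their side of the threshold, 26 newly passed, 20 no longer passed and 15 changed sign. The 15 were not called before or after. They were, in early against parental cells, SCD (0.04 without FL early replicate 1; −0.19 to 0.04 over libraries left out). In FGF2 early against parental cells they were ELOVL6 (0.12 without FGF2 early replicate 1, 0.23 without parental replicate 2; −0.16 to 0.23) and SCD (−0.03 with the replicate block). In FL early against parental cells they were FADS1 (−0.21 with limma-voom, −0.06 and −0.30 without FL early replicates 2 and 3; −0.30 to 0.48), SCD (0.02 without FL early replicate 1; −0.41 to 0.02) and FADS2 (0.24, 0.11 and 0.67 without FL early replicate 1, 4 or both; −0.75 to 0.24). In FGF2 early against FL early cells they were FASN (−0.02 without FL early replicate 1, −0.01 without 1 and 4; −0.02 to 0.20), ACSL3 (−0.08) and ACLY (−0.01), the last ones without FL early replicates 1 and 4.

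Of the 9 genes, those called in FL early against parental cells numbered 0 with limma-voom, 2 with the replicate block and 2 without FL early replicates 1 and 4. In early against parental cells 4 were called without those replicates, and in FGF2 early against FL early cells 1 with limma-voom. Leaving out 1 library gave 1 to 3 called genes in early against parental cells and 0 to 1 in FL early against parental cells. Over all genes, leaving out 1 library gave 2685 to 5337 calls in early against parental, 1512 to 3943 in FL early against parental and 1351 to 3274 in FGF2 early against FL early cells, with 3498 there without FL early replicates 1 and 4. The lowest counts came without parental replicate 1 or 2 (2784 and 2685, and 1651 and 1512), and without FGF2 early replicate 3 or 4 or FL early replicate 2 or 3 (1389, 1351, 1362 and 1368), against 4700, 3259 and 2137 with all libraries. Fits that leave out a library also hold fewer libraries, and the cause of these changes was not tested.

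Deviations of same-numbered libraries from their group means had correlations of −0.094 to 0.066. With 3 or 4 libraries in a group, these values cannot decide whether such libraries were handled together, which no label states. The numbers were not used as pairs in the main fit. With the replicate block FADS1 in FGF2 early against FL early cells gave −2.06 (adjusted p = 0.0526), ACSS2 −0.38 (adjusted p = 0.0413) and FADS2 −4.15 (adjusted p = 0.0205). Upper-quartile scaling moved the median of all genes to −0.164 in early against acute and 0.1796 in acute against parental cells, and no call of the 9 genes changed with it. The comparison of levels between genes per transcript length was not run. ELOVL6 had as few as 7 estimated counts in a library (acute replicate 1), and FADS2 as few as 40 (FGF2 early replicate 2). FADS1 had 108 or more in every library. The part of low counts in the spread of these genes was not tested.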

Other observations

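Of 15 tested SREBP targets of sterol synthesis and uptake, 6 were higher and 1 lower in early against acute cells (median 0.24), and 2 were higher and 6 lower in acute against parental cells (median −0.33). Of all genes, 32.1% were higher and 33.9% lower in early against acute cells, and 32.3% higher and 30.3% lower in acute against parental cells. DHCR7, CYP51A1 and FDPS, enzymes of the route to cholesterol, gave 1.54 ± 0.14, 1.12 ± 0.16 and 0.69 ± 0.09 in early against acute cells (adjusted p = 3.85e-07, 3.18e-05 and 1.13e-05, edgeR).

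Of 23 genes that place fatty acids into glycerolipids or release them, 10 were higher and 7 lower in early against acute cells (median 0.15), beside the same 32.1% and 33.9% of all genes. AGPAT5 and GPAM, which act early in that synthesis, gave 1.39 ± 0.09 and 0.93 ± 0.11, and AGPAT4 gave −1.34 ± 0.16. MGLL, the monoacylglycerol lipase, stood at 1.31 to 5.54 CPM in FGF2 early flasks, 6.95 to 21.4 CPM in FL early flasks, 52.2 to 65.1 CPM in acute libraries and 35.8 to 38.4 CPM in parental libraries. It was lower in FGF2 early than in FL early cells (−1.89 ± 0.36, adjusted p = 0.00442) and lower than in parental cells in both (−3.28 ± 0.39 with FGF2 and −1.39 ± 0.36 with FL, adjusted p = 6.47e-05 and 0.0159). Of 8 LXR targets, 4 were higher and 2 lower in early against acute cells, where 32.1% and 33.9% of all genes were. LPCAT3, which places polyunsaturated chains into phospholipids, gave 0.79 ± 0.12 there, and SMPDL3A was lower in FGF2 early than in FL early cells (−1.69 ± 0.33, adjusted p = 0.00404).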
